A study of Mus musculus with 3 samples.

Results

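The liver of mice kept on a high-fat diet and given DfCS-Ib was compared with the liver of mice on regular chow, to describe which genes still lay away from the chow level in the treated animals. Genes were taken from the full table by a single rule, a mean of at least 1 CPM (counts per 1000000 counts of the library's own total) over the DfCS-Ib and chow libraries. The rule left 13071 of 41799 listed genes, of which 11348 were protein-coding. The genes nearest the limit were D730003I15Rik inside it, at 1.00008 CPM, and 0610043K17Rik outside it, at 0.99984 CPM. All animals were male C57BL/6 mice aged 14 weeks, and RNA was taken from whole liver. The chow group received regular chow only, the HFD group a high-fat diet only, and the DfCS-Ib group the high-fat diet together with DfCS-Ib, a sulfated oligosaccharide known here by its code name, at 40 mg/kg by oral gavage. There were 8 mice in a group, 1 library stands for each group, and how many mice gave RNA to a library is not given in the sources used here.

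Several programmes of liver biology bear on the genes described. SREBP transcription factors drive cholesterol and fatty acid synthesis and respond to sterols and insulin. Type I interferon acts through STAT and IRF factors on a set of antiviral genes that share a short promoter element. In rodents the pattern of growth hormone release, pulsed in males and more continuous in females, sets sex-biased liver genes through STAT5, with BCL6 and CUX2 among the factors downstream. Acute phase proteins are secreted by hepatocytes under interleukin 6 and interleukin 1, and Kupffer cells are the resident macrophages of the liver. Hepatocytes near the portal vein carry most urea synthesis and amino acid breakdown, and those near the central vein most cytochrome P450 activity.

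With 1 library on each side, no difference has a replicate check, and a comparison here is of libraries and not of conditions. Values of the 3 libraries are given in the order chow, high-fat diet, DfCS-Ib. The fold of a single gene is the ratio of CPM in the DfCS-Ib library to that in the chow library, or its inverse where the gene was lower, with a 95% exact (Clopper-Pearson) interval for counting error only. Counts of genes and list medians use the log2 ratio of CPM plus 1, which understates differences of genes with few reads, and a gene was counted as higher or lower at 2-fold or more on that scale. The high-fat library is set beside the others against the same chow library, so the log2 ratios of both diets to chow share that library and are given side by side only.

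The libraries held 11028671, 12279537 and 10969699 counts. A gene with 0 counts could still have up to 3, which is 0.244 to 0.273 CPM. Among named genes, Capn11, Chac1, Mup17, Mx1, Oas3, Orm3 and Saa3 were under 1 CPM in chow and passed only through DfCS-Ib. Cux2, Gria3, Lrrc15, Serpina3e-ps and Tcf24 passed the filter only through chow, being under 1 CPM in the DfCS-Ib library. Of 6 hepatocyte markers measured, 0 were at least 2-fold away from chow, and their log2 ratios lay between -0.26 and 0.24. Albumin made up 11.003%, 8.91% and 9.19% of counts. Markers of skeletal muscle, adipocytes and B cells were all below the 1 CPM limit, and 4 of 6 exocrine pancreas markers were listed at 0. Of 17 genes of antigen presentation by MHC, 11 were listed at 0 in all libraries, H2-K1 and H2-D1 among them. Several of these are expressed in normal liver, so an entry of 0 does not show silence. Gene models on the opposite strand overlap Acaca, Aox3, Arg1, Arntl, B2m, Bhlhe40, Car3, Clock, Col3a1, Cpt1a, Cux2, Cyp17a1, Cyp2u1, Cyp39a1, Dbp, Dio1, Elovl3, Emr1, Enho, Etnppl, Fgf21, Fgg, G0s2, Gbp2, Gbp3, Ghr, Gsta3, Ifit1, Igf1, Insig1, Klf10, Lgr5, Lipc, Mtf1, Npas2, Nxpe2, Per2, Por, Serpina12, Serpina7, Slc13a2, Slc13a3, Slc16a5, Slc30a10, Slco1a1, Socs2, Srebf1 and Susd4, and with no strand setting given in the sources used here reads of the partners in such a pair cannot be told apart. Reads of close copies, such as the Saa, Orm, Mup, Cyp2c, Cyp3a, Cyp4a, Oas, Ifit, Gbp, Hsd3b, Acot and Serpina3 genes, may be divided among them.

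Of the 13071 genes, 217 (1.66%) stood 2-fold or more above chow in the DfCS-Ib library and 56 (0.428%) 2-fold or more below, 2.09% in all. List counts given below are to be read beside these shares. The lists and their members were chosen with earlier results of these data known. A list count past these shares is therefore a description and not independent support. For the high-fat library the shares over the same genes were 4.09% above and 1.92% below, 6.01% in all. The median log2 ratio of all genes was 0.00 for DfCS-Ib, with an SD over genes of 0.37, and 0.10 for the high-fat library, with an SD of 0.54. Of all genes, 51.1% had a ratio above 1 and 48.9% a ratio below 1. Within 1.5-fold of chow lay 11942 genes of the DfCS-Ib library. Most differences were moderate: 197 of the 217 higher and 53 of the 56 lower genes lay between 2-fold and 4-fold. The counting interval lay wholly past 2-fold for 92 higher genes (0.704%) and 31 lower genes (0.237%). At the edge, Mycl was just inside the 2-fold limit at a log2 ratio of 1.0015 and Aox3 just outside it at 0.999, while on the lower side Cyp2u1 stood at -1.02 and Gm35339 at -0.995.

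**Figure D1:**
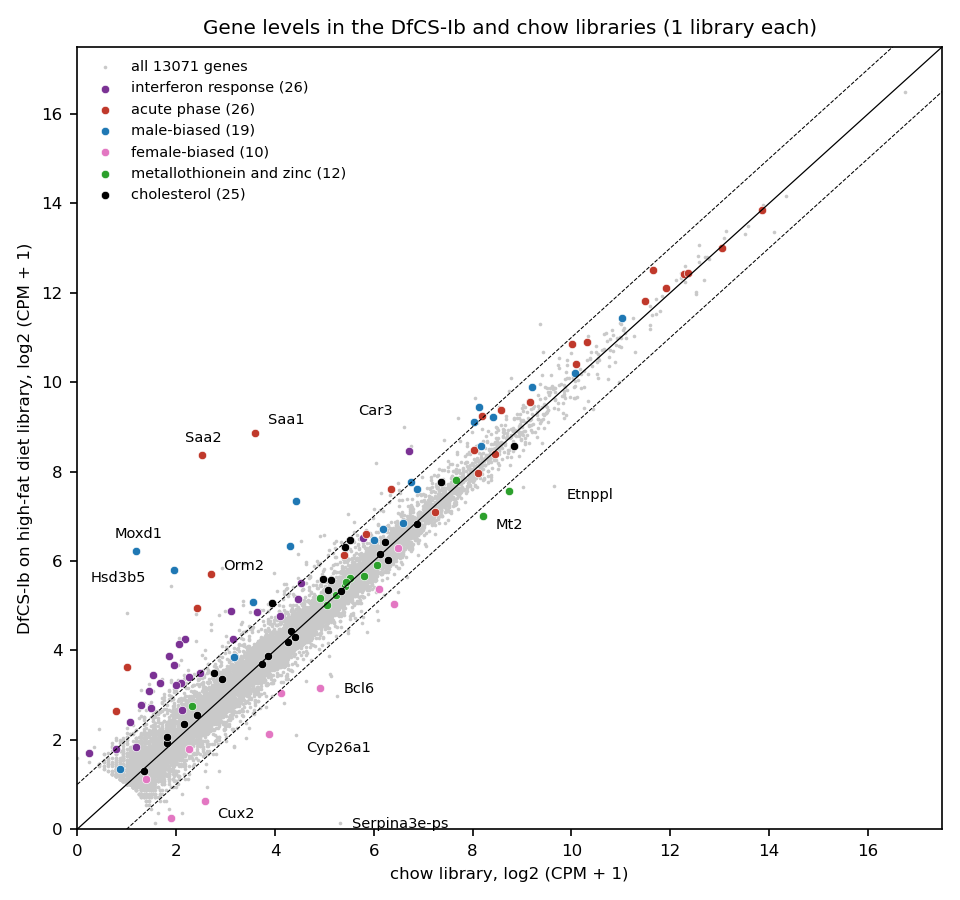
Level of each of 13071 genes in the chow library (x axis) and the DfCS-Ib library (y axis), both as log2 of CPM plus 1, with 6 gene lists coloured and the number of genes measured in brackets; the solid line marks equal levels and the dashed lines a 2-fold difference. Acute phase and male-biased genes reach farthest above the lines, female-biased genes and Serpina3e-ps lie below, and cholesterol genes lie along the solid line.

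Genes of cholesterol synthesis and uptake, which the high-fat library carried far above chow, lay close to chow in the DfCS-Ib library. Of 25 measured members 1 stood 2-fold or more above chow and 0 below, with a median log2 ratio of 0.12. In the high-fat library 21 stood that far above chow, with a median of 2.40. Hmgcs1, which acts early in the pathway, measured 68.5, 583 and 70.1 CPM, a log2 ratio of 0.03 between the DfCS-Ib and chow libraries. The member past the limit was Msmo1, a sterol demethylating oxidase, at 14.3, 204 and 32.4 CPM and higher by 2.26-fold (1.87 to 2.74). Short of the limit, Insig1, which retains the sterol sensor in the endoplasmic reticulum, was higher by 1.97-fold (1.76 to 2.20) and Sqle, squalene epoxidase, by 1.76-fold (1.28 to 2.43).

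Fatty acid and triglyceride synthesis had 0 of 20 measured members at least 2-fold away from chow in either direction, with a median of 0.03, against 10 higher and 1 lower in the high-fat library and a median of 0.91. Fasn, fatty acid synthase, measured 63.2, 537 and 67.8 CPM, and the DfCS-Ib library was 1.07-fold (0.967 to 1.19) from chow. Some members lay below the chow level: Scd1, which makes monounsaturated fatty acids, measured 1288, 7386 and 769.7 CPM and was lower by 1.67-fold (1.63 to 1.72), and Acaca, which makes malonyl-CoA, was lower by 1.77-fold (1.43 to 2.18). Others lay above it, with Srebf1, the gene of SREBP-1, higher by 1.56-fold (1.29 to 1.88) and the lipogenic regulator Thrsp by 1.62-fold (1.24 to 2.12). Both sides of the chow level were therefore occupied within this list. In glycolysis, glycogen and fructose metabolism 0 of 21 were at least 2-fold away in either direction (median 0.09), with Pklr, liver pyruvate kinase, at 30.6, 232 and 39.9 CPM and the ketohexokinase gene Khk at 186, 483 and 203 CPM. Among gluconeogenic and insulin-repressed genes the count was 0 of 18 (median -0.07). Pck1, phosphoenolpyruvate carboxykinase, measured 4470.4, 2152 and 4964 CPM, G6pc, glucose-6-phosphatase, measured 914, 778 and 741 CPM, and Igfbp1, an insulin-repressed binding protein gene, measured 564, 132 and 401 CPM.

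**Figure D2:**
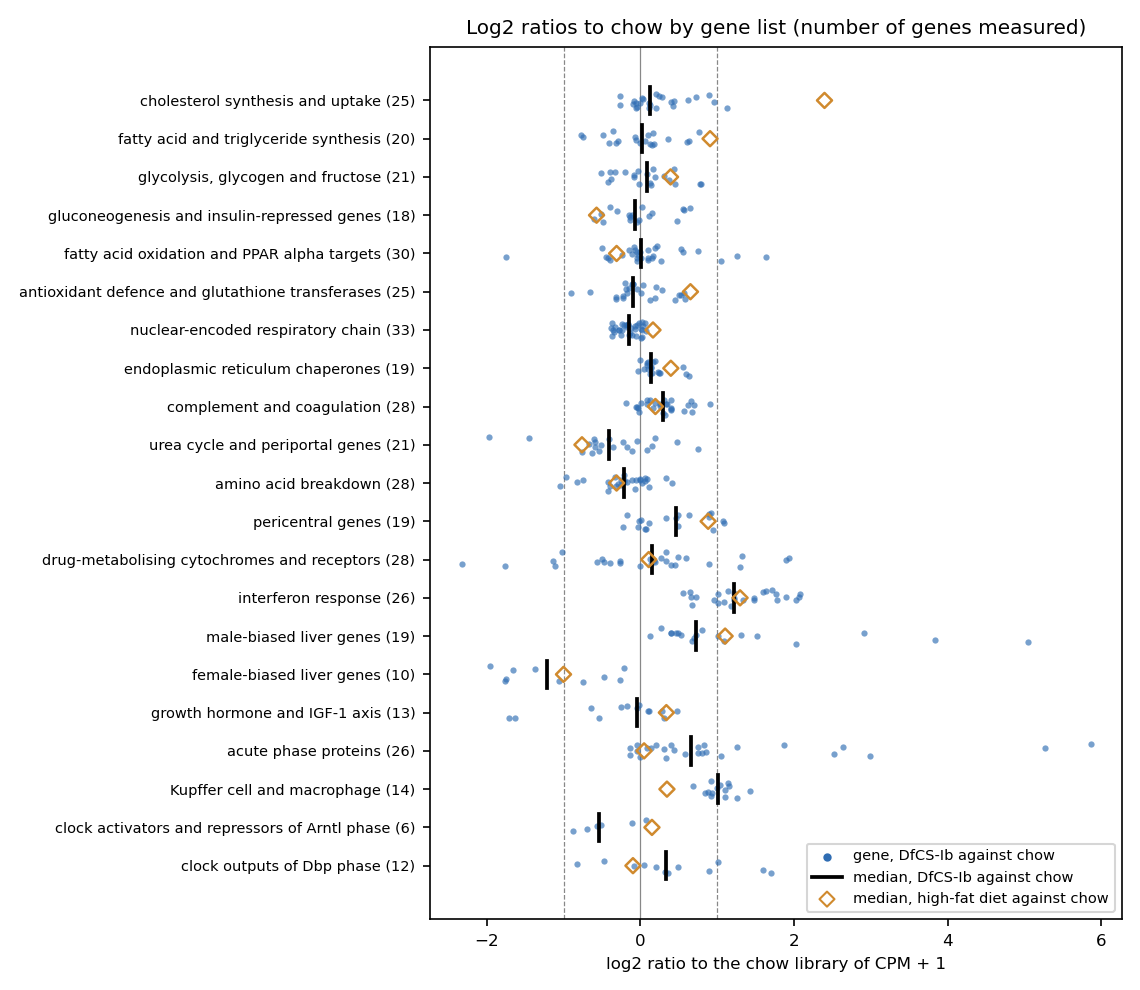
Log2 ratios to the chow library of CPM plus 1 (x axis) for 21 gene lists (y axis, number of genes measured in brackets); each blue point is a gene in the DfCS-Ib library, the black bar the list's median, the open orange diamond the list's median in the high-fat library, and dashed lines mark 2-fold. The cholesterol list has its DfCS-Ib median at 0.12 and its high-fat median at 2.40, whereas for the interferon list the medians are 1.22 and 1.30.

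Interferon response genes were above chow with DfCS-Ib as they were on the high-fat diet alone. Of 29 listed genes 26 were measured, 2 were under 1 CPM and 1 was listed at 0. In the DfCS-Ib library 20 of the 26 stood 2-fold or more above chow and 0 below, with a median log2 ratio of 1.22, and all 26 had ratios above 1. Over all genes 1.66% stood that far above. The high-fat library had 22 of the same 26 at least 2-fold above chow, with a median of 1.30. Ifit1, whose product binds foreign RNA ends, lies on chromosome 19, 34640889 to 34650009 of mm10 and had 39, 194 and 197 counts, so that the DfCS-Ib library was higher than chow by 5.08-fold (3.59 to 7.36). Its neighbour Ifit3 had 21, 121 and 108 counts and was higher by 5.17-fold (3.22 to 8.69). The ubiquitin-like gene Isg15 (on chromosome 4, 156199424 to 156200818) had 16, 114 and 64 counts and was higher by 4.02-fold (2.30 to 7.45). Each of these was lowest in chow, with the high-fat and DfCS-Ib libraries both above it.

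The other members by the same rule were regulators and effectors. Usp18, which removes the product of Isg15 from proteins and restrains interferon signalling, had 29, 138 and 151 counts and was higher by 5.23-fold (3.50 to 8.08). Rtp4 had 35, 180 and 182 counts and was higher by 5.23-fold (3.63 to 7.74). Rsad2, the antiviral enzyme viperin, had 84, 239 and 314 counts and was higher by 3.76-fold (2.95 to 4.84). Iigp1, an interferon-inducible GTPase, measured 103, 361 and 353 CPM and was higher by 3.41-fold (3.20 to 3.65). Mx1 had only 2, 33 and 25 counts, a ratio of 12.6-fold (3.13 to 109). Irf7, a transcription factor that amplifies interferon production, measured 11.4, 27.5 and 27.9 CPM and was higher by 2.44-fold (1.98 to 3.03). Oas3, an oligoadenylate synthetase gene outside the list, had 4, 22 and 41 counts and a ratio of 10.3-fold (3.73 to 39.6). For 6 of the 26 the log2 ratio was under 1, the lowest being Gbp2 at 0.55. The count of 20 was 12 with RPKM plus 1 and 8 with CPM plus 5 in place of CPM plus 1. Further genes known to respond to interferon were picked out after their values were seen: Irf9 had 234, 508 and 531 counts, Ddx60 17, 119 and 67 counts, Ifitm3 991, 3448 and 2099 counts and Zbp1 17, 65 and 51 counts.

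Promoter sequences of interferon list genes are shown because most of these genes were above chow in both libraries. The window, from RefSeq on GRCm38.p6 (the build mm10 names), runs from 250 bases before to 50 after the gene's start, and 18 of the 26 genes had an entry. The letters GAAA, any 2 bases and again GAAA, read on both strands with overlapping matches counted, are the core that IRF factors and the interferon-activated complex bind. They stood in the window of 11 of the 18 genes, or, counted by window, in 11 of 20 (55%). The share was 3.44% of all 32851 promoter windows of the same length and 3.07% of the 11697 windows of measured genes. A match is a description of the letters and not a mapped binding site. The sequences below are given 5′ to 3′ on the gene's strand with matches in capitals, and on the reverse strand a match reads TTTC, any 2 bases, TTTC. Isg15 lies at chr4:156200769-156201068 (minus strand), Ifit1 at chr19:34640639-34640938, Ifit3 at chr19:34583279-34583578 and Gbp3, a guanylate-binding protein gene higher by 3.94-fold (2.49 to 6.45), at chr3:142559794-142560093 (all 3 on the plus strand).
Isg15: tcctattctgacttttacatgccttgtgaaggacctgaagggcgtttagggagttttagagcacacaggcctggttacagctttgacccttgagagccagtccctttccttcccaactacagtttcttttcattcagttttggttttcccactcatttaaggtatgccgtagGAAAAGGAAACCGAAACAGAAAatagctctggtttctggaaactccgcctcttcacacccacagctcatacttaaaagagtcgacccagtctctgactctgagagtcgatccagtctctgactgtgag
Ifit1: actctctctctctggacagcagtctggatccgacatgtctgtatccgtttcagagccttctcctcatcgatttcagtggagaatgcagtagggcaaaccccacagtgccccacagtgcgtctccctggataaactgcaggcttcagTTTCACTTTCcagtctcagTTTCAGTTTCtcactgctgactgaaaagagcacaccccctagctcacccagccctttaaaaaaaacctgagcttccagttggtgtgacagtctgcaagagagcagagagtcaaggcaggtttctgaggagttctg
Ifit3: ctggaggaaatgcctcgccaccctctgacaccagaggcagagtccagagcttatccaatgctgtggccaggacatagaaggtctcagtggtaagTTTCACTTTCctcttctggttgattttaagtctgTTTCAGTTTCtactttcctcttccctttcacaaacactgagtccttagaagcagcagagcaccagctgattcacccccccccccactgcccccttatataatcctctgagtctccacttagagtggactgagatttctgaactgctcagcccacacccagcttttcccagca
Gbp3: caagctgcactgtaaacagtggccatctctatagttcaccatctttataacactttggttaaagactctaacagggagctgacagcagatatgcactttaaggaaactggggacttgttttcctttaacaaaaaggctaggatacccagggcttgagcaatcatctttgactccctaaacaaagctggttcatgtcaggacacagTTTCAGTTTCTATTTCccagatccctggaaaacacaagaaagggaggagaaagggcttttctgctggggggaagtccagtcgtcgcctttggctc
In Isg15 the 3 matches overlap one another in a single block, and in Gbp3 the 2 matches also overlap. In Ifit1 and Ifit3 the 2 matches are apart.

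Listed genes whose liver level depends on sex and the pattern of growth hormone release also lay away from chow. Members of the male-biased list were higher and members of the female-biased list lower. Bcl6, a factor downstream of growth hormone, was lower. It is counted in the growth hormone list, given below, and not in the male-biased list. Its value is therefore outside the counts of the sex-biased lists and is not read as part of their shift. Of 19 measured male-biased genes 8 stood 2-fold or more above chow and 0 below, all 19 had ratios above 1, and the median was 0.73 (high-fat library: 10 higher, median 1.10). Of 10 measured female-biased genes 6 stood 2-fold or more below chow and 0 above, all 10 had ratios below 1, and the median was -1.22 (high-fat library: 5 lower and 1 higher, median -1.0003). Another 8 female-biased genes were under 1 CPM and 2 were listed at 0, and with no filter on low values the median of this list was -0.26. Over all genes 1.66% stood that far above chow and 0.428% that far below, and with CPM plus 5 the count of 6 became 3.

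Among the male-biased genes, Hsd3b5, a steroid dehydrogenase gene on chromosome 3, 98618636 to 98645534, had 32, 3620 and 601 counts. The DfCS-Ib library was higher than chow by 18.9-fold (13.2 to 27.9) and below the high-fat library. Moxd1, a copper monooxygenase-like gene on chromosome 10, 24223517 to 24302783, was ordered otherwise, with 14, 32 and 811 counts and a ratio of 58.2-fold (34.5 to 107) to chow. The DfCS-Ib library alone was high for this gene. The major urinary protein genes, which encode pheromone carriers secreted in male urine, had 3 of 4 measured members at least 2-fold higher. Mup17 had 11, 241 and 303 counts and was higher by 27.7-fold (15.3 to 56.1), and Mup11 had 226, 773 and 1757 counts and was higher by 7.82-fold (6.80 to 9.02). Mup7, placed on an unlocalised scaffold, had 208, 570 and 876 counts. Cyp7b1, a male-biased oxysterol hydroxylase gene, measured 261, 267 and 555 CPM and was higher by 2.13-fold (2.03 to 2.22), Slco1a1, an organic anion transporter gene, measured 279, 678 and 693 CPM and was higher by 2.49-fold (2.38 to 2.59), and Susd4 was higher by 3.05-fold (2.47 to 3.79). Elovl3, a fatty acid elongase gene, measured 339, 811 and 593 CPM, and Cyp2d9 stood near chow at 1075, 1143 and 1172 CPM.

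On the female-biased side, Cux2, a transcription factor gene expressed mainly in female liver, had 55, 5 and 6 counts and was lower than chow by 9.12-fold (3.93 to 25.9). Fmo2, a flavin monooxygenase gene, had 929, 198 and 350 counts and was lower by 2.64-fold (2.33 to 2.99). Acot3, an acyl-CoA thioesterase gene, had 320, 85 and 87 counts and was lower by 3.66-fold (2.88 to 4.69). For these 3 genes the high-fat and DfCS-Ib libraries both lay below chow. Cyp3a16 and Abcd2, a peroxisomal fatty acid transporter gene, differed from that order: Cyp3a16 had 152, 115 and 37 counts and was lower by 4.09-fold (2.84 to 6.02), and Abcd2 had 180, 477 and 80 counts, with the high-fat library above chow and the DfCS-Ib library below it by 2.24-fold (1.71 to 2.95). Female-biased Cyp17a1 was lower by 1.70-fold (1.51 to 1.92).

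Within the growth hormone axis 2 of 13 measured genes stood 2-fold or more below chow and 0 above, with a median of -0.04. The share of all genes that far below was 0.428%. Bcl6, a repressor that competes with STAT5 (on chromosome 16, 23965052 to 23988612), measured 34.2, 7.41 and 9.75 CPM and was lower by 3.50-fold (2.82 to 4.39). Socs2, a feedback inhibitor of the growth hormone receptor (on chromosome 10, 95383903 to 95417253), measured 33.5, 6.68 and 10.1 CPM and was lower by 3.31-fold (2.67 to 4.13). Cish, another feedback inhibitor and STAT5 target, measured 9.34, 22.6 and 5.65 CPM, high in the high-fat library and lowest in the DfCS-Ib library. Igf1, the circulating growth factor gene, measured 910.2, 575 and 629 CPM and was lower by 1.45-fold (1.40 to 1.49), while the receptor gene Ghr measured 294, 664 and 409 CPM.

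**Figure D3:**
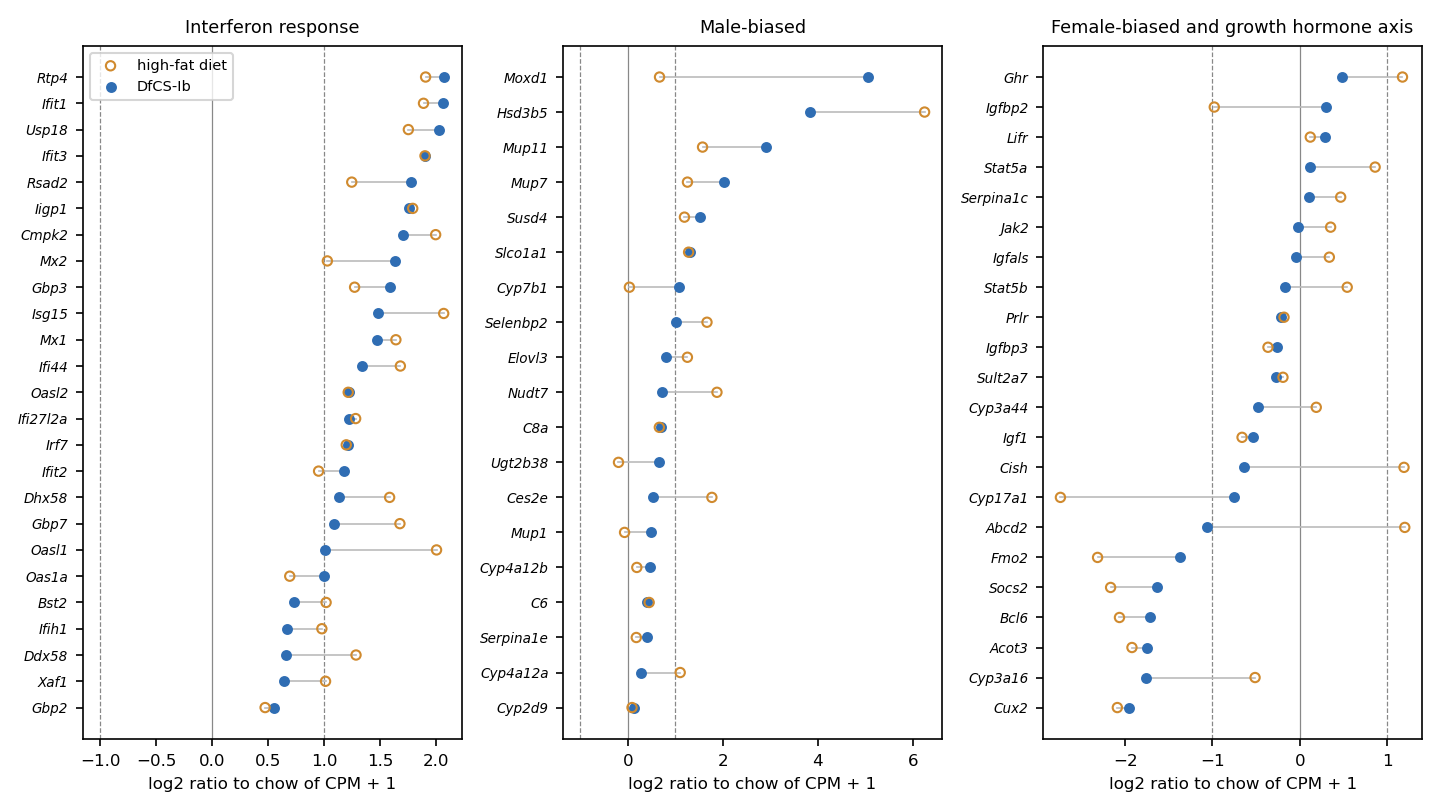
Log2 ratio to the chow library of CPM plus 1 (x axis) for genes (y axis) of the interferon list (25 drawn), the male-biased list (19 drawn), and the female-biased and growth hormone lists (22 drawn together), in the high-fat library (open orange) and the DfCS-Ib library (blue); dashed lines mark 2-fold, and both ratios share the chow library. The 25 interferon genes drawn lie above 0 in both libraries, whereas genes such as Moxd1, Hsd3b5, Cish and Abcd2 have the libraries far apart.

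Cytochrome P450 genes and bile acid handling genes lay on both sides of chow. Of 28 measured drug-metabolising cytochromes and receptors 4 stood 2-fold or more above chow and 5 below (median 0.16). The shares of all genes were 1.66% above and 0.428% below. Cyp2c29, an abundant hepatic cytochrome, measured 657, 3749 and 2505 CPM and was higher by 3.81-fold (3.72 to 3.91). Cyp2b10, the standard target of the receptor CAR, measured 6.89, 38.8 and 28.3 CPM and was higher by 4.10-fold (3.18 to 5.34), with Cyp2c50 at a ratio of 2.50-fold (2.41 to 2.58) and Cyp2c54 at one of 2.46-fold (2.33 to 2.59). Within the 13 measured Cyp2c genes 4 stood that far above chow and 2 below, the lower ones being Cyp2c38, by 2.21-fold (1.88 to 2.60), and Cyp2c39, by 2.74-fold (1.69 to 4.56). Cyp3a11, which oxidises many drugs, measured 5909.6, 3798 and 3989.8 CPM and was lower by 1.48-fold (1.46 to 1.4993), and Cyp1a2 measured 252, 899 and 469 CPM. Por, the reductase that serves these enzymes, was at 735, 186 and 885 CPM, near chow in the DfCS-Ib library only.

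Of 21 bile acid genes 3 stood 2-fold or more above chow and 2 below (median 0.13), with Cyp7b1 and Slco1a1, given above, among the higher ones. All genes together had 1.66% above and 0.428% below. Cyp2c70, which makes the muricholic acids of the mouse, measured 106, 434 and 378 CPM and was higher by 3.56-fold (3.33 to 3.80). Slco1a4, an organic anion uptake transporter gene, measured 517, 68.1 and 199 CPM and was lower by 2.60-fold (2.47 to 2.73), and Cyp39a1, an oxysterol hydroxylase gene, measured 101, 29.2 and 49.0 CPM and was lower by 2.06-fold (1.86 to 2.29). Cyp7a1, which catalyses the first step from cholesterol to bile acids, measured 108, 41.5 and 77.8 CPM, lower by 1.39-fold (1.28 to 1.52), and the bile salt export pump gene Abcb11 measured 409, 981 and 576 CPM. Cyp8b1, which makes cholic acid, had a log2 ratio of -0.20 and Cyp27a1 of 0.07.

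Pericentral genes lay mostly above chow, with 2 of 19 past 2-fold and 0 lower by that much, 15 of 19 with ratios above 1 and a median of 0.47 (high-fat library: 7 higher, 1 lower, median 0.88). Rgn, which takes part in ascorbate synthesis in rodents, measured 297, 1111 and 627 CPM and was higher by 2.11-fold (2.02 to 2.20), and Slc13a3, a dicarboxylate transporter gene, had 46, 130 and 110 counts and a ratio of 2.40-fold (1.69 to 3.47). Glul, glutamine synthetase and the classic marker of the hepatocytes around the central vein, measured 498, 650.0 and 628 CPM, and Cyp2e1, an ethanol-oxidising cytochrome, 6126, 6990.4 and 8603 CPM. The Wnt target Axin2 measured 4.62, 9.37 and 9.66 CPM and was higher by 2.09-fold (1.48 to 2.98), short of the limit on the log2 scale. For the Wnt receptor component Lgr5, at 4.53, 10.2 and 3.74 CPM, chow stood to DfCS-Ib at 1.21-fold (0.787 to 1.88), an interval that includes 1. Car3, a carbonic anhydrase gene abundant in liver on chromosome 3, 14863490 to 14872536, measured 96.8, 3369.7 and 509 CPM. It was higher than chow by 5.25-fold (4.92 to 5.61) in the DfCS-Ib library and 34.8-fold (32.7 to 37.0) in the high-fat library. Aqp8, a water channel of the bile canaliculus, measured 8.70, 187 and 16.4 CPM and was higher by 1.89-fold (1.46 to 2.44), short of the limit.

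Periportal and amino acid genes lay mostly below chow in the DfCS-Ib library, fewer of them past 2-fold than in the high-fat library. Of 21 urea cycle and periportal genes 2 stood 2-fold or more below chow and 0 above, with a median of -0.41 and 16 of 21 ratios below 1 (high-fat library: 8 lower, median -0.76). Etnppl, which breaks down phosphoethanolamine (on chromosome 3, 130617448 to 130635750), measured 797, 168 and 202 CPM and was lower by 3.94-fold (3.76 to 4.13). Sdsl, a serine dehydratase-like gene, measured 56.9, 11.4 and 20.2 CPM and was lower by 2.81-fold (2.41 to 3.29). The urea cycle genes were within 2-fold: Asl, argininosuccinate lyase, measured 1716, 458 and 1079 CPM and was lower by 1.59-fold (1.55 to 1.63), and Ass1, argininosuccinate synthase, measured 954, 417 and 617 CPM and was lower by 1.55-fold (1.5001 to 1.59). Arg1, arginase, measured 3103, 1618 and 2332 CPM. Cps1, the first enzyme of the cycle, is listed on a scaffold and not on a chromosome and measured 109, 50.7 and 76.3 CPM, which may be part of its reads only. For each of these 6 genes the DfCS-Ib library lay between the high-fat library and chow.

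Among 28 genes of amino acid breakdown 1 stood 2-fold or more below chow and 0 above (median -0.21, with 8 lower in the high-fat library). Aass, the first enzyme of lysine breakdown, measured 1377, 323 and 669 CPM and was lower by 2.06-fold (2.00 to 2.12). Mat1a, which makes S-adenosylmethionine and was picked out after its values were seen, measured 17623, 3460.2 and 10475 CPM and was lower by 1.68-fold (1.67 to 1.69), with Cth, of cysteine synthesis, lower by 1.95-fold (1.91 to 1.99) and Got1, an aspartate aminotransferase gene, by 1.78-fold (1.73 to 1.83), also picked out in that way. Tat, tyrosine aminotransferase, measured 4753, 2132 and 5135 CPM, Tdo2, which opens the tryptophan ring, 3562, 1744 and 3083 CPM, and Hpd, of tyrosine breakdown, 2479, 1508 and 2079 CPM.

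The metallothionein genes Mt1 and Mt2, neighbours on chromosome 8 whose products bind zinc and copper, were below chow. Mt2 measured 295, 1.30 and 127 CPM and was lower by 2.32-fold (2.18 to 2.47), and Mt1 measured 423, 5.78 and 187 CPM and was lower by 2.26-fold (2.14 to 2.38). For both genes the DfCS-Ib library lay between chow and the high-fat library, which was the lowest by far. Among the other 10 measured genes of the zinc list 0 were at least 2-fold away from chow. Slc30a10, a manganese exporter gene, measured 55.1, 88.3 and 49.7 CPM and Slc39a14, a metal uptake transporter gene, 202, 169 and 222 CPM. The zinc-sensing factor gene Mtf1 had a log2 ratio of -0.05. The promoter windows of the pair are shown for the core of the metal response element that MTF1 binds. The letters TGCNCNC were searched on both strands. They stood at least 1 time in 51% of all windows, at least 3 times in 7.1% and at least 6 times in 0.225%. Of the windows of measured genes 59.2% held at least 1 match, and shares with more matches were not computed for these. Mt1 (chr8:94178839-94179138, plus strand) held 3 and Mt2 (chr8:94172368-94172667, plus strand) held 6, in capitals below. On the reverse strand a match reads GNGNGCA.
Mt1: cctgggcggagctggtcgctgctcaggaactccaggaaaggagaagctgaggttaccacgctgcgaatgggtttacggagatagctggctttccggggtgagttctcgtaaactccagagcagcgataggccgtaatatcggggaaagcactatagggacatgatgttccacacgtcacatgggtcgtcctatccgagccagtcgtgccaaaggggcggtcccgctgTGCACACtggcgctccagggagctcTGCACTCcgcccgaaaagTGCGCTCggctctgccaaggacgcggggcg
Mt2: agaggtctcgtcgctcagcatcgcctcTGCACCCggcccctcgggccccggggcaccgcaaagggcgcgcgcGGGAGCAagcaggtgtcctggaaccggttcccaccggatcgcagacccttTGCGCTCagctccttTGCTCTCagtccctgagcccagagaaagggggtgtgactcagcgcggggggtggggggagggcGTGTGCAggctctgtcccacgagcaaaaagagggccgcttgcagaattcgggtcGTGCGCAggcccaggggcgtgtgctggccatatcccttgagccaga
These windows come from RefSeq on GRCm38.p6, and a gene's start there may differ from the start its reads used.

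Other lower genes shared the order chow, DfCS-Ib, high-fat diet. Lepr, the leptin receptor gene, measured 43.8, 5.70 and 21.0 CPM and was lower by 2.09-fold (1.78 to 2.45). Gadd45b, a stress-inducible gene, had 145, 9 and 62 counts and was lower by 2.33-fold (1.72 to 3.18). Sik1, a kinase gene that restrains CREB-driven gluconeogenesis, measured 66.6, 17.7 and 24.6 CPM and was lower by 2.71-fold (2.35 to 3.12). Slc16a5, of the monocarboxylate transporter family, measured 73.3, 3.99 and 36.6 CPM, lower by 2.00-fold (1.77 to 2.26) and short of the limit on the log2 scale. A few genes were lowest in the DfCS-Ib library instead. Cyp26a1, the main retinoic acid hydroxylase of liver (on chromosome 19, 37697808 to 37701536), measured 20.5, 17.9 and 3.28 CPM and was lower by 6.24-fold (4.38 to 9.14), whereas its relative Cyp26b1 measured 35.3, 2.28 and 24.6 CPM. Slc13a2, a dicarboxylate transporter gene, had 69, 38 and 16 counts and was lower by 4.29-fold (2.46 to 7.92). In the retinoid and thyroid list as a whole 2 of 21 were higher and 1 lower, the higher ones being Dio1, which activates thyroid hormone, at 43.8, 138 and 132 CPM and higher by 3.01-fold (2.71 to 3.34), and Serpina7, thyroxine-binding globulin, with 25, 488 and 73 counts and a ratio of 2.94-fold (1.84 to 4.83).

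**Figure D4:**
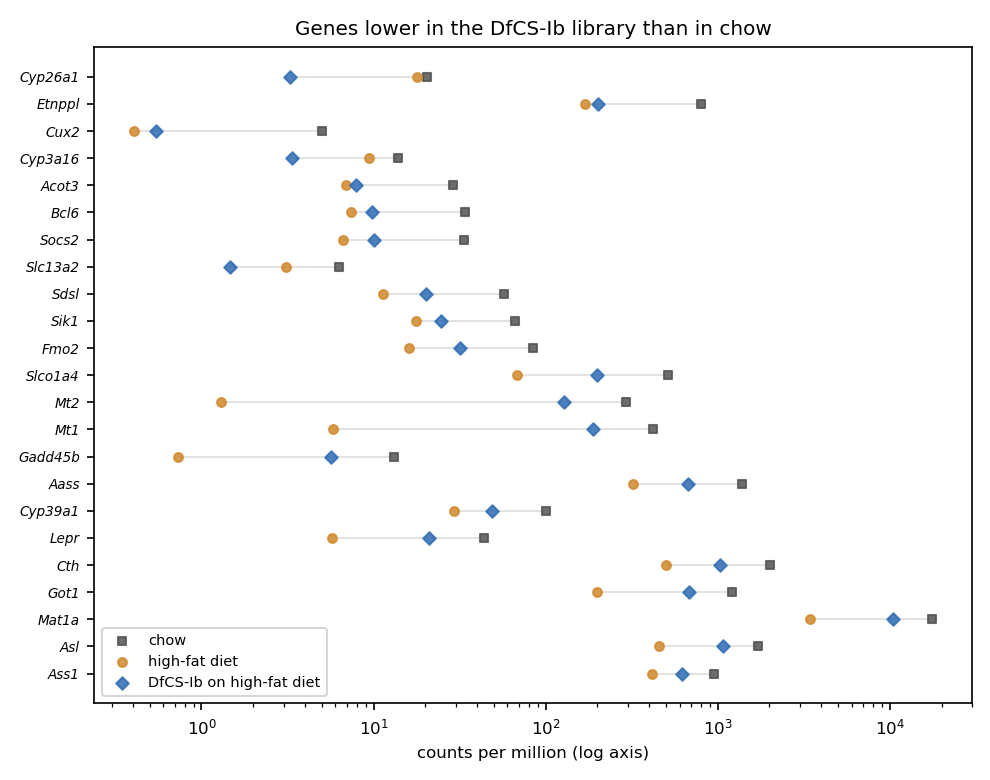
Level in CPM (x axis, log scale) of 23 genes lower in the DfCS-Ib library than in chow (y axis), in the chow library (squares), the high-fat library (circles) and the DfCS-Ib library (diamonds). Mt1, Mt2, Lepr and Gadd45b have the high-fat library farthest from chow, and Cyp26a1, Cyp3a16 and Slc13a2 the DfCS-Ib library.

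Acute phase genes lay above chow with DfCS-Ib and near chow on the high-fat diet alone. Of 26 measured members 8 stood 2-fold or more above chow and 0 below, 21 had ratios above 1, and the median was 0.66 (high-fat library: 1 higher, 1 lower, median 0.05). Over all genes 1.66% stood 2-fold or more above chow. The serum amyloid A genes, whose products join high-density lipoprotein in inflammation, lay farthest out. Saa2 (on chromosome 7, 46751777 to 46754314) measured 4.71, 5.78 and 331 CPM and was higher by 70.1-fold (53.4 to 94.1), and Saa1 measured 11.2, 15.1 and 467 CPM and was higher by 41.8-fold (35.0 to 50.4). Saa3, the form made also by macrophages, had 11, 22 and 125 counts and was higher by 11.4-fold (6.17 to 23.5), and Saa4, the constitutive form, measured 80.7, 228 and 195 CPM and was highest in the high-fat library. Among the orosomucoid genes, which encode plasma drug carriers, Orm2 had 61, 27 and 560 counts and was higher by 9.23-fold (7.08 to 12.2), Orm3 had 8, 11 and 58 counts, and Orm1 measured 293, 306 and 609.5 CPM and was higher by 2.08-fold (1.99 to 2.17). Lcn2, an iron-siderophore binding protein gene, had 48, 57 and 326 counts and was higher by 6.83-fold (5.03 to 9.45).

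The abundant plasma proteins of the same list lay nearer chow. Hpx, which binds heme, measured 3216, 2859 and 5789 CPM for a log2 ratio of 0.85. Hp, haptoglobin, measured 2879, 2494 and 3579 CPM, higher by 1.24-fold (1.22 to 1.26), and the fibrinogen genes Fga, Fgb and Fgg had log2 ratios of 0.14, 0.09 and 0.21. Hamp, which encodes the iron hormone hepcidin, was at -0.13 and C3 at -0.04. The list therefore held 8 genes past 2-fold and 18 within it. In the list of interleukin 6 and NF-kB signalling 4 of 19 stood 2-fold or more above chow and 0 below (median 0.15). The share of all genes that far above was 1.66%. Cebpb, a transcription factor of the acute phase, measured 69.9, 59.1 and 184 CPM and was higher by 2.63-fold (2.42 to 2.86), Il1r1, the interleukin 1 receptor, measured 47.5, 43.0 and 117 CPM and was higher by 2.46-fold (2.22 to 2.73), the interleukin 1 antagonist gene Il1rn had 21, 14 and 82 counts, and Vcam1, which binds leukocytes to endothelium, had a ratio of 2.54-fold (2.20 to 2.94). Socs3, a feedback inhibitor of interleukin 6 signalling, had 86, 53 and 150 counts, higher by 1.75-fold (1.34 to 2.31) but short of the limit on the log2 scale. Stat3 and Il6ra had log2 ratios of 0.15 and 0.14. Scara5, a ferritin receptor gene outside the lists, had 73, 57 and 620 counts and was higher by 8.54-fold (6.69 to 11.04).

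**Figure D5:**
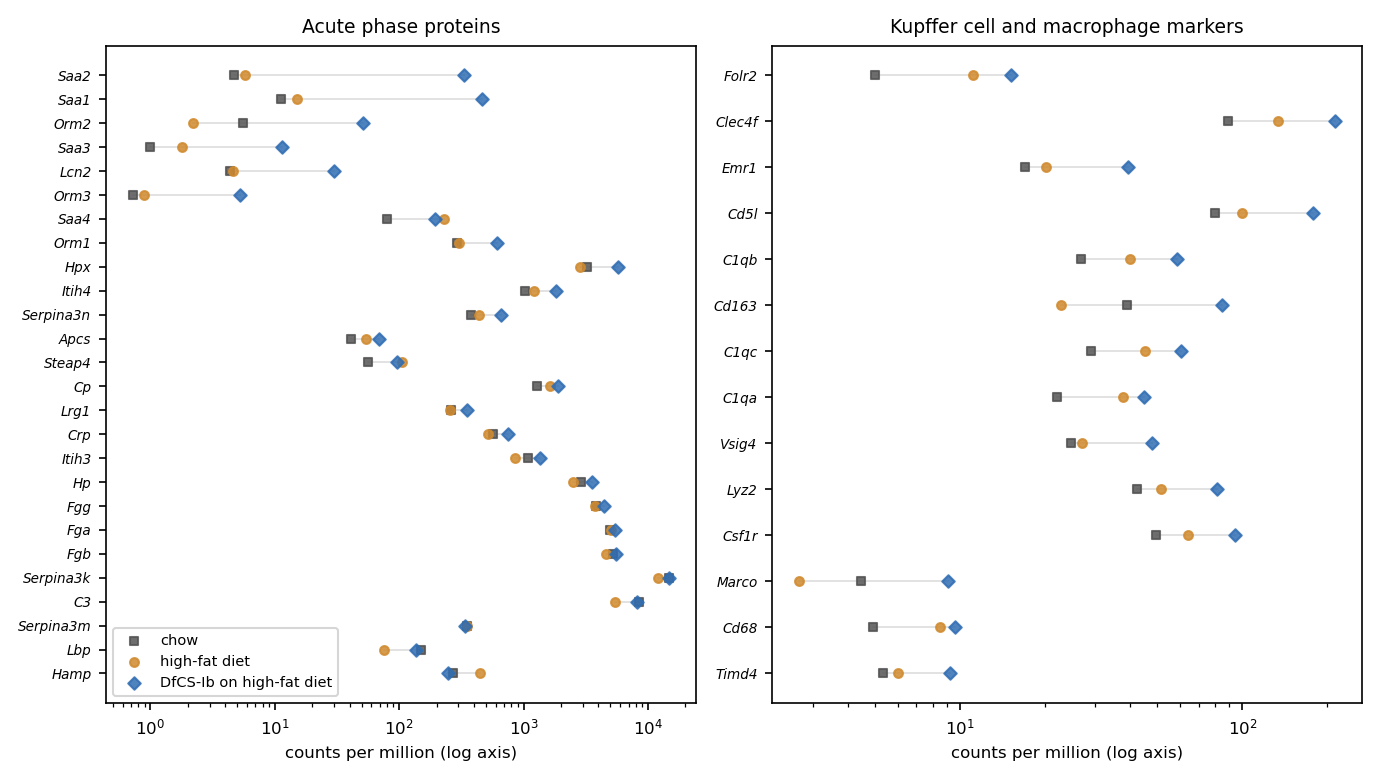
Level in CPM (x axis, log scale) of 26 acute phase genes (left) and 14 Kupffer cell and macrophage markers (right), in the chow library (squares), the high-fat library (circles) and the DfCS-Ib library (diamonds). Saa1 and Saa2 are above 300 CPM in the DfCS-Ib library only, and each of the 14 macrophage markers is highest in the DfCS-Ib library.

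Macrophage markers were higher as a group in the DfCS-Ib library. Of 14 markers, all measured, 7 stood 2-fold or more above chow and 0 below, and the 14 log2 ratios ran from 0.68 to 1.43 with a median of 1.02. The share of all genes past 2-fold in that direction was 1.66%. Their summed level was 439, 569.9 and 946 CPM, and in the high-fat library 1 of 14 was past 2-fold (median 0.35). Clec4f, a lectin gene restricted to Kupffer cells, measured 89.0, 133 and 213 CPM and was higher by 2.40-fold (2.22 to 2.58). Cd163, the hemoglobin scavenger receptor, measured 39.2, 22.8 and 85.1 CPM and was higher by 2.17-fold (1.94 to 2.44), with the high-fat library below chow. Emr1, the gene of the F4/80 antigen, measured 17.05, 20.2 and 39.3 CPM and was higher by 2.30-fold (1.94 to 2.75). In bulk RNA, more or fewer cells of a type and more or less RNA per cell cannot be told apart. In the high-fat library the macrophage median was 0.35 beside an interferon median of 1.30. Interferon and acute phase genes are also expressed by macrophages to differing degrees, and the part of the macrophage shift in their lists was not tested.

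Markers of other cells had fewer genes past 2-fold. Endothelial markers had 0 of 7 at least 2-fold away (median 0.07), cholangiocyte markers 0 of 4 (median 0.00), and stellate cell markers 1 of 7 higher (median 0.18), which was the collagen gene Col3a1 at 9.70, 24.3 and 20.7 CPM. In the wider list of matrix and fibrosis genes the same gene was the 1 of 20 that was higher, and 18 of 20 had ratios above 1 (median 0.30). Col1a1 had 35, 53 and 71 counts. Erythroid markers had 0 of 4 past 2-fold, with all 4 ratios above 1, log2 ratios from 0.33 to 0.80 and a median of 0.43. T cell, monocyte, neutrophil and exocrine pancreas lists had 1 measured marker each, all within 2-fold of chow, and the pancreatic one, Cela1, had 36, 170 and 57 counts. The part of these cells in the results was not tested. Siglec1, a macrophage adhesion receptor gene picked out after its values were seen, had 101, 134 and 346 counts and was higher by 3.44-fold (2.75 to 4.34).

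Fatty acid oxidation genes lay near chow with a few exceptions. Of 30 measured members 3 stood 2-fold or more above chow and 1, Acot3, below, with a median of 0.00 (high-fat library: 3 higher, 8 lower, median -0.31). The higher genes were Vnn1, pantetheinase, at 29.2, 63.3 and 93.2 CPM and higher by 3.19-fold (2.81 to 3.63), Fabp1, the liver fatty acid binding protein, at 687, 2237 and 1640.5 CPM and higher by 2.39-fold (2.33 to 2.45), and the mitochondrial carrier gene Ucp2 at 19.6, 26.9 and 41.7 CPM. Cpt1a, which commits fatty acids to mitochondrial oxidation, measured 922, 381 and 891 CPM. Cyp4a14, a fatty acid hydroxylase, measured 5888, 706 and 4158 CPM and was lower than chow by 1.42-fold (1.40 to 1.43), whereas Ppara itself measured 411, 301 and 604 CPM, higher by 1.47-fold (1.42 to 1.53). Acot1 had a log2 ratio of -0.23.

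In the lipid droplet list 2 of 19 stood 2-fold or more above chow and 0 below (median 0.18). All genes together had 1.66% that far above. G0s2, an inhibitor of adipose triglyceride lipase (on chromosome 1, 193272160 to 193273188), measured 64.9, 36.8 and 293 CPM and was higher by 4.52-fold (4.16 to 4.90), and Hilpda, another droplet-associated lipase inhibitor, had 30, 32 and 75 counts. Plin2, the main droplet coat of hepatocytes, measured 559.5, 612 and 772 CPM, Cidec 19.04, 5.70 and 14.9 CPM and Cd36, a fatty acid transporter, 40.8, 77.8 and 55.5 CPM. Among secreted regulators 4 of 23 were higher and 0 lower. Fgf21, a hormone of fasting and nutrient stress, had 25, 10 and 101 counts and was higher by 4.06-fold (2.60 to 6.57), Inhbe, an activin subunit gene, measured 21.0, 35.6 and 69.7 CPM and was higher by 3.32-fold (2.86 to 3.86), Enho, which encodes adropin, had 61, 153 and 254 counts and was higher by 4.19-fold (3.15 to 5.63), and Serpina12, vaspin, had 100, 633 and 262 counts. For Fgf21, Inhbe and Enho the DfCS-Ib library was the highest of the 3. Apoa4 measured 921, 296 and 584 CPM, and in the lipoprotein list 0 of 20 genes were at least 2-fold away from chow (median 0.22), with Apob at -0.17, Apoa1 at 0.24 and Lipc, hepatic lipase, at 0.72.

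Clock genes lay on both sides of chow. The output genes Dbp and Nr1d1, which peak together in the light phase, were higher: Dbp had 36, 78 and 141 counts, a ratio of 3.94-fold (2.71 to 5.85), and Nr1d1 measured 30.7, 44.1 and 94.9 CPM, higher by 3.09-fold (2.73 to 3.50). Bhlhe40 was the only other gene of 12 in that list past 2-fold (median 0.34), and Per1 and Per2 lay below chow, with log2 ratios of -0.48 and -0.82. Among the 6 genes of the Arntl phase 0 were past 2-fold (median -0.54), with Arntl at 26.9, 30.3 and 16.2 CPM, Npas2 at 23, 93 and 12 counts and Clock at -0.10 on the log2 scale. The hour at which livers were taken is not given in the sources used here. Of 17 immediate early and stress genes 4 were higher and 0 lower: Egr1 measured 17.6, 3.75 and 43.8 CPM and was higher by 2.49-fold (2.11 to 2.96), Klf10 by 2.30-fold (1.88 to 2.83), Btg2 by 2.16-fold (1.81 to 2.58) and Junb by 2.06-fold (1.74 to 2.45). For all 4 the high-fat library lay below chow. The share of all genes higher by 2-fold or more was 1.66%. Fos had 19, 14 and 32 counts and Jun a log2 ratio of -0.23.

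Several lists held few or no genes 2-fold away from chow. Nuclear-encoded respiratory chain genes had 0 of 33, yet 25 of 33 ratios were below 1, with a median of -0.15 and a range of -0.38 to 0.08. Atp5b, picked out after its values were seen, encodes an ATP synthase subunit and measured 1464, 1334 and 1163 CPM, lower by 1.26-fold (1.23 to 1.29). Antioxidant and glutathione transferase genes had 0 of 25 (median -0.09), against 11 higher in the high-fat library. Gclc, of glutathione synthesis, measured 205, 623 and 178 CPM and Gsta3 521, 2035 and 713 CPM. Endoplasmic reticulum chaperones had 0 of 19 (median 0.14), and Hspa5, the main chaperone, measured 1328, 1749 and 1464 CPM. Complement and coagulation genes had 0 of 28, with 23 ratios above 1 and a median of 0.30. C9, of the membrane attack complex, measured 372, 567 and 700.2 CPM, higher by 1.88-fold (1.81 to 1.95).

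Of 26 iron and heme genes 2 were higher and 0 lower (median 0.06). They were Alas1, which starts heme synthesis, at 271, 415 and 544 CPM and a ratio of 2.01-fold (1.92 to 2.10) that fell under the limit with TMM factors, and the BMP target Id1 with 33, 106 and 82 counts. Cell cycle genes had 1 of 15 higher, Mki67, a marker of dividing cells, with 27, 64 and 65 counts. In the list of amino acid stress genes driven by ATF4, 2 of 15 were higher and 0 lower (median 0.18): Fgf21, given above, and Chac1, which breaks down glutathione, with 8, 58 and 34 counts. Asns, asparagine synthetase, had 128, 33 and 69 counts and lay below chow by 1.85-fold (1.37 to 2.51). In the list of glucocorticoid targets 0 of 11 were higher and 2 lower, namely Lepr and Gadd45b (median 0.04), and in that of amino acid and carboxylate transporters 1 of 17, Slc13a3, was higher and 1, Slc13a2, lower (median 0.01). Carbonic anhydrases and aquaporins had 1 of 11 higher, which was Car3. Of the 6 measured genes of antigen presentation 0 were past 2-fold (median 0.31), with B2m, the MHC class I light chain, at 965, 1296 and 1439 CPM. Among 870 long noncoding RNAs measured 12 were higher and 11 lower. For this and the lists above, the shares of all genes were 1.66% higher and 0.428% lower.

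Some of the largest ratios belonged to single genes outside these groups. Rgs16, a regulator of G protein signalling, had 35, 132 and 200 counts and was higher by 5.75-fold (3.997 to 8.48), and Nxpe2 had 47, 508 and 297 counts and was higher by 6.35-fold (4.66 to 8.84). Phlda1, picked out after its values were seen, measured 22.1, 118 and 86.1 CPM and was higher by 3.89-fold (3.38 to 4.50). For Nxpe2 and Phlda1 the high-fat library was the highest. Lrrc15 had 57, 11 and 10 counts and was lower by 5.67-fold (2.87 to 12.5), and Tcf24 had 29, 10 and 4 counts. Hhex, a homeobox factor gene of hepatocytes also picked out in that way, measured 89.1, 108 and 38.5 CPM and was lower than chow by 2.32-fold (2.07 to 2.60), with the high-fat library above chow.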

How the data were processed

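Total liver RNA was sequenced in 3 libraries, 1 for each of the groups described above. Per the file headers, the authors deposited raw counts per gene and RPKM values, with mm10 positions. The deposited RPKM equalled the count divided by length and by the file's total, with deviations of at most 0.000506% where a gene had 100 counts or more. The submitters' processing notes name TopHat2 and mm10. Which tool counted reads, with which strand setting and gene models, is not given in the sources used here. Files were joined on gene name and position, since a spreadsheet had turned some names into dates. Counts were scaled to the column totals, 10969699 to 12279537. The filter was a mean over the DfCS-Ib and chow libraries of 1 CPM or more. Log2 ratios used CPM plus 1, and 2-fold was the limit. Intervals are 95% Clopper-Pearson intervals from the binomial split of a gene's counts (SciPy 1.17.1) and were tested on simulated data. The simulated counts followed the counting model that the intervals assume. That test therefore checks the computation only and does not cover variation between mice or libraries. No p-value was computed, and samples were not paired.

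Most genes were named by rule. These were the 20 higher and 20 lower genes with the largest fold at the interval bound nearest 1. Added to them were fixed anchor genes of each list and up to 6 other called members of a list by that ranking. Some named genes fall outside this rule and are not marked as such where they appear. Among them are Cd163, Clec4f, Cyp17a1, Cyp2c39, Emr1, Fga, Fgb, Fgg, Gbp2, Gbp3, Hpx, Insig1 and Mtf1. Gene models without a settled name were left out. There were 36 function lists and 13 cell type lists, of 802 distinct genes, 694 of them measured. The members and lists were chosen with earlier results of these data known. Alternatives used edgeR 4.0.16 for TMM factors and DESeq2 1.42.0 for size factors. Promoter windows came from RefSeq, GRCm38.p6. The values of some genes are not reported here.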

Additional observations from a re-analysis of the deposited data

How the results depend on the processing

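The counts of 217 higher and 56 lower genes were 215 and 57 with TMM factors, 214 and 57 with DESeq2 size factors and 189 and 62 with totals that left out the 50 most abundant genes. Under other units, pseudocounts, filters and call rules they were 124 and 32 with the authors' RPKM plus 1, 287 and 108 with CPM plus 0.5, 82 and 21 with CPM plus 5, 144 and 33 with a mean of at least 5 CPM, 92 and 31 with the interval wholly past 2-fold, and 224 and 60 with no filter. The share of called genes that were higher was 79.5% and ranged from 72.7% to 81.4%. Of the single-gene folds under other scalings, 750 of 772 stayed inside their counting intervals, and the other 22 moved with the totals that left out abundant genes. That count is a weak check, because ratios of the authors' RPKM repeat the main folds by construction. The factors of chow and DfCS-Ib were also nearly equal, at 0.976 and 0.978 for TMM and 0.943 and 0.941 for DESeq2. No called gene changed direction, and scalings this close to the main one could not reverse a 2-fold difference. The interferon list had 20 of 26 members higher, 12 with RPKM plus 1 and 8 with CPM plus 5. The female-biased list had 6 of 10 lower and 3 with CPM plus 5. No list median of at least 0.1 in size changed sign. No paired analysis was possible because each group has 1 library, and no library could be left out. Depth limits genes of few reads. Of the 217 higher genes, 125 had a counting interval that reached below 2-fold, as had 25 of the 56 lower genes. Not all of these had few reads. Alas1, with 2987 counts in chow and 5963 in DfCS-Ib, was among them because its fold was close to 2.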

Other observations

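A few genes set the DfCS-Ib library apart from both others and belong to none of the groups described. Serpina3e-ps, a pseudogene of the Serpina3 family of protease inhibitors on chromosome 12, 104188794 to 104194860, had 427, 396 and 1 counts, a ratio of 425-fold (75.8 to 16814) below chow. Its relatives on the same chromosome did not share this, with Serpina3k at 162899, 148849 and 161452 counts, Serpina3m at 3852, 4346 and 3704 counts and Serpina3n at 4187, 5374 and 7283 counts. Gria3, a glutamate receptor subunit gene, had 22, 13 and 1 counts, a ratio of 21.9-fold (3.54 to 903) below chow. Capn11, a calpain gene, had 0, 0 and 22 counts, at least 7.37-fold higher against a floor of 3 counts in chow, and its counting interval starts at 5.51-fold. Both Gria3 and Capn11 lay near the 1 CPM filter. Capn11 passed it only through the DfCS-Ib library, at 2.01 CPM, and Gria3 only through chow, at 1.99 CPM.

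TrnG, the mitochondrial glycine tRNA gene, had 30, 25 and 462 counts and was higher by 15.5-fold (10.7 to 23.2) in the DfCS-Ib library. The other 16 measured mitochondrial tRNA genes had log2 ratios between -0.43 and 0.78, and the 8 measured mitochondrial protein genes between -0.63 and 0.05. The mitochondrial share of all counts was 5.38% in chow and 5.24% in the DfCS-Ib library. Reads of so short a gene may belong to its neighbours, and this was not tested.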
